A study of Mus musculus with 10 samples.

Results

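The Hox cluster genes are the 39 mouse genes whose symbol is Hoxa, Hoxb, Hoxc or Hoxd followed by digits alone. They were found by matching symbols to the Ensembl gene IDs of the deposited expression tables, and they occupy 40 of the 22713 IDs, since Hoxa3 is listed under 2 IDs. Hox genes encode homeodomain transcription factors that give cells their position along the body axis. They lie in 4 clusters, and within a cluster the genes are ordered by paralog group, from the anterior groups (1 to 3) through the central groups (4 to 8) to the posterior groups (9 to 13), which is also the order in which they come on in the embryo. In undifferentiated embryonic stem (ES) cells the clusters are kept low by Polycomb proteins, and trithorax proteins, retinoic acid and Cdx factors act to open them during differentiation.

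Messenger RNA was sequenced in 8 libraries of mouse ES cells. Pontinf/f; CreER ES cells, whose floxed Pontin alleles are removed when 4-hydroxy tamoxifen (OHT) activates Cre, gave 1 untreated library (WT), 1 at 3 days after OHT (OHT 3D) and 1 at 4 days (OHT 4D), so that WT carries the floxed alleles and CreER too. ZHBTc4 ES cells, in which tetracycline (Tc) shuts off Oct4, gave 1 library 2 days after Tc (Tc 2D), 2 libraries infected with a control pLKO lentivirus and 2 infected with a lentivirus against the long noncoding RNA linc1253, these 4 at 4 days after infection. Untreated ZHBTc4 cells also gave 1 ChIP-seq library with an antibody to Pontin, an ATPase of several chromatin complexes, and 1 with an antibody to GFP as the control. The depletion time points have no replicates, the labels do not say whether the duplicate shRNA libraries came from separate cultures, and the study's methods state that ES cells were grown either on embryonic fibroblast feeders or without them.

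Reads on genes numbered 17187595 to 18120429 in the first 4 libraries and 21245831 to 37951742 in the shRNA libraries. The normalized read counts are given as CPM, the reads of a gene scaled to an effective library size set by the normalization. A single read was worth between 0.0258 and 0.0461 CPM. For Pontin mRNA, listed as Ruvbl1, WT had 198 CPM, OHT 3D had 33.3 and OHT 4D had 50.9. Tc 2D had 85.0 CPM of it, and the ZHBTc4 controls had 166 and 186. For Oct4 mRNA, listed as Pou5f1, Tc 2D had 21.1 CPM, against 301 for WT and 642 and 582 for the ZHBTc4 controls. No row carried the symbol linc1253, so its knockdown was not checked here. In bulk RNA, fewer cells expressing a gene and less RNA per cell cannot be told apart. Intervals given below cover the counting of reads alone.

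In the NCBIM37 build, HoxA holds 11 genes on chr6:52105366-52210874, a span of 105.5 kb, and HoxB holds 10 genes on chr11:96055630-96229570, a span of 173.9 kb. HoxC holds 9 genes on chr15:102751534-102867274 over 115.7 kb, and HoxD holds 9 genes on chr2:74506367-74603200 over 96.8 kb. The exons of 19 of the 40 IDs overlap another annotated gene, in 7 cases a gene that has its own row in the tables, so that reads there are uncertain. Among the genes whose reads are described below, Hoxd4 shares 67.4% of its exon bases with Hoxd3, Hoxb8 shares 40.4% with Hoxb7, and Hoxa7 shares 20.4% with the noncoding gene 2700086A05Rik. Hoxb2, with 49.4% of its exon bases shared, and the Hoxa3 ID ENSMUSG00000059723, with 100% shared, held 0 reads in all 8 libraries.

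The 250 bases before 4 Hox start sites are shown because the expression and ChIP-seq results turn on these genes. Hoxa4 had one of the highest Pontin ratios of the Hox promoters, Hoxa7 went from 0 reads to a call in all 3, Hoxc13 was the highest Hox gene at Tc 2D, and Hoxd11 had the lowest Pontin ratio. They were chosen after their values were seen. Sequences are from the NCBIM37 reference, 5′ to 3′ on the strand of the gene, and capitals mark every match to the 7 motifs named in the next paragraph.
Hoxa4 (chr6:52141753-52142002, minus strand): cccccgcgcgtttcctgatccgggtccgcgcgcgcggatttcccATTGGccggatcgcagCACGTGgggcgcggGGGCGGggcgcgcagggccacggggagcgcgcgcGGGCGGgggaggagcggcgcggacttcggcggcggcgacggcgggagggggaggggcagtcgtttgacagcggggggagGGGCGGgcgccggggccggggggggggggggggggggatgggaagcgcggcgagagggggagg
Hoxa7 (chr6:52171854-52172103, minus strand): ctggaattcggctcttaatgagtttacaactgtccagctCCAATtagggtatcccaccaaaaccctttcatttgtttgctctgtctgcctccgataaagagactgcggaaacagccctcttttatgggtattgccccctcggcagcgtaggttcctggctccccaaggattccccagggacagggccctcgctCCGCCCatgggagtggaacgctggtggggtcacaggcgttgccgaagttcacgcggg
Hoxc13 (chr15:102751284-102751533, plus strand): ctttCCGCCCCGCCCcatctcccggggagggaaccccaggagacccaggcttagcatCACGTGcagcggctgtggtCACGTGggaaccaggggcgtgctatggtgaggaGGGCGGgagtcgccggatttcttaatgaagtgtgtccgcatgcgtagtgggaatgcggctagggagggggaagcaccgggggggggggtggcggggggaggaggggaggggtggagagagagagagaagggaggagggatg
Hoxd11 (chr2:74517199-74517448, plus strand): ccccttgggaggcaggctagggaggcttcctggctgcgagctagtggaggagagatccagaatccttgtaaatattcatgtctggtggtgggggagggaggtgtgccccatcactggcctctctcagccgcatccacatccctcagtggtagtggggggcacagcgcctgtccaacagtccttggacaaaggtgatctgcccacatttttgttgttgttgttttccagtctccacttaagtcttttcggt

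Both strands were searched for 7 motifs. They were the octamer bound by Oct4, ATGCAAAT, and a site of paired PBX and HOX proteins, TGATNNAT. A direct repeat read by retinoic acid receptors was searched as a pair of AGGTCA sites on the same strand with any 5 bases between them. The others were the TATA box with the letters TATAAA, the box of the letters CCAAT, the GC box with GGGCGG and the E-box with CACGTG. The CCAAT box was found before 25 of 39 Hox genes (64.1%) and before 35.0% of 22367 protein-coding genes, and the E-box before 6 (15.4%) and 6.52%. The PBX and HOX pair was found before 6 Hox genes (15.4%), Hoxb1, Hoxb3, Hoxb8, Hoxb9 and Hoxc11 among them, and before 6.99% of all genes. The GC box stood before 41.0% of Hox genes and 39.6% of all genes, and the TATA box before 15.4% and 12.3%. Neither the octamer nor the direct repeat was found in these windows before a Hox gene, and they occurred before 1.62% and 0.00447% of all genes. Median GC content was 54% both for Hox genes and for all genes, and the median number of CpG pairs was 11 and 8. The window of Hoxd11 held none of the 7 motifs, and that of Hoxc13 held 3 GC boxes and 2 E-boxes. These matches are descriptions of the letters and name no bound site.

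Hox mRNA was low in all 8 libraries. Over the 40 IDs, WT had a summed CPM of 7.64, OHT 3D of 16.4, OHT 4D of 18.1 and Tc 2D of 39.05. In the ZHBTc4 libraries it was 17.0 and 14.2 with the control virus and 13.1 and 12.8 with linc1253 knockdown. WT was therefore the lowest of the 8 and Tc 2D the highest, and both Pontin-depleted libraries lay close to the ZHBTc4 controls. The tables of the first 4 and the last 4 libraries were normalized separately. By the paper's account, the first 4 and the last 4 were also sequenced on different instrument models. Both points hold for every value set across these groups of libraries. WT had reads on 18 of the 40 IDs, OHT 3D on 33, OHT 4D on 34, Tc 2D on 36 and the shRNA libraries on 28 to 30.

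**Figure D1:**
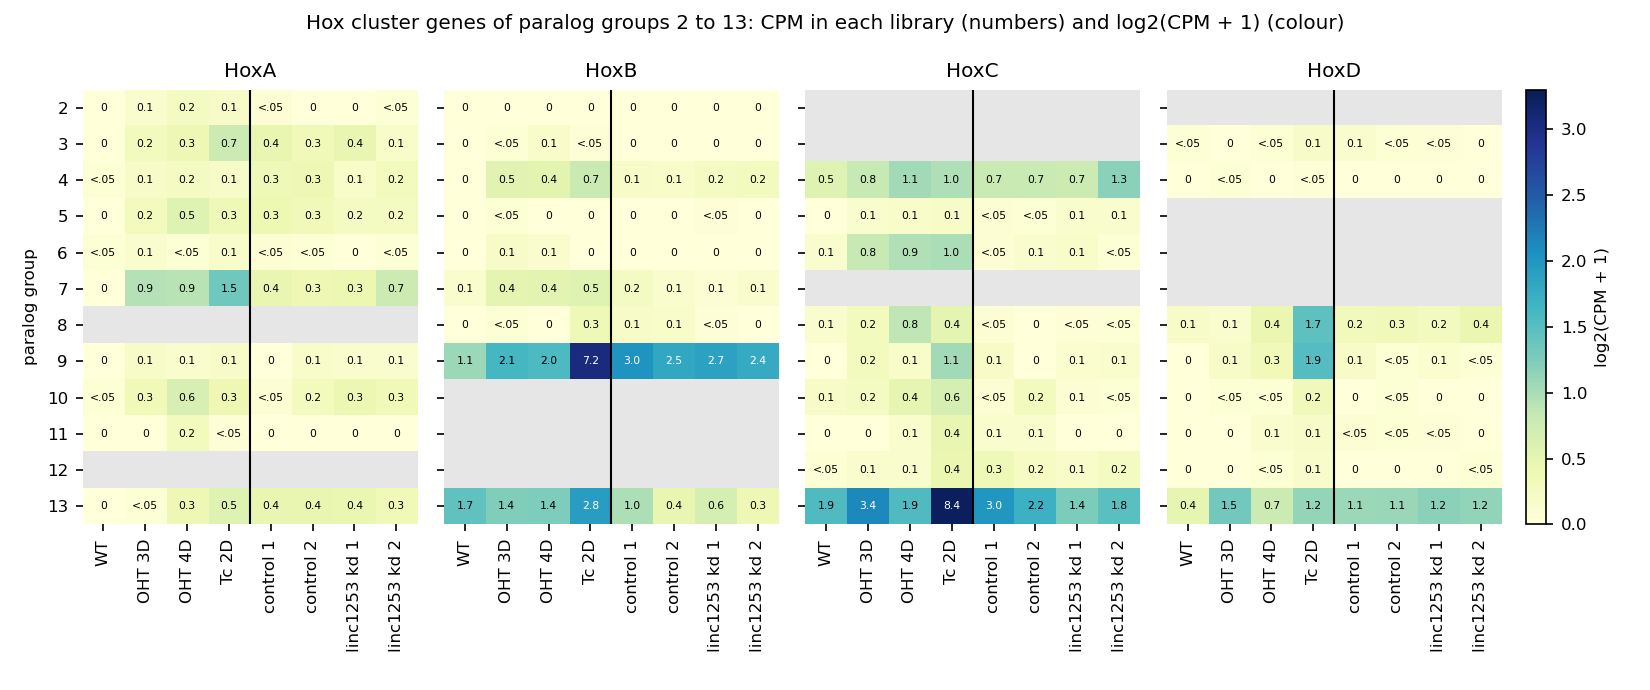
CPM of Hox genes of paralog groups 2 to 13 in each of the 8 libraries, by cluster (panels) and paralog group (rows). Printed numbers are CPM, colour is log2 of CPM plus 1, grey marks paralogs that a cluster lacks, the 2 Hoxa3 IDs share a row, and the black line separates the 2 normalized tables. Hoxb9, Hoxb13, Hoxc13 and Hoxd13 are the darkest rows, and Hoxc13 reaches 8.42 CPM at Tc 2D.

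Few genes carried the reads. CPM passed 1 in at least 1 of WT, OHT 3D, OHT 4D and Tc 2D for 10 members, and in at least 1 shRNA library for 5, Hoxb9, Hoxc4, Hoxc13 and Hoxd13 among them. Among the 10, only Hoxb9, Hoxb13 and Hoxc13 passed 1 in WT itself. The other 7, among them Hoxa7, Hoxc4, Hoxc9, Hoxd8, Hoxd9 and Hoxd13, passed through a depleted library alone, so they had to be higher there, and their counts are a description rather than support. Per kb of exon, Hoxc13 (0.781 CPM per kb), Hoxb13 (0.770) and Hoxb9 (0.434) were among the highest in WT. At Tc 2D, Hoxc13 had 3.42 CPM per kb, Hoxb9 had 2.79 and Hoxb13 had 1.28. Posterior paralogs held 70.2% of the Hox reads of WT, 57.7% of those of OHT 3D, 45.8% of those of OHT 4D and 64.9% of those of Tc 2D.

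After Pontin depletion, Hox mRNA was higher than in WT in both libraries. Summed reads, scaled to CPM, were 2.14-fold those of WT at OHT 3D (95% counting interval 1.78 to 2.59) and 2.37-fold at OHT 4D (1.98 to 2.85). HoxA had the highest ratios, 3.68-fold at OHT 3D (2.34 to 5.99) and 5.80-fold at OHT 4D (3.78 to 9.25). HoxB stood at 1.56-fold and 1.5-fold, HoxC at 2.07-fold and 2.01-fold, and HoxD at 2.36-fold and 2.01-fold. By position, the central paralogs were 4.51-fold and 5.92-fold higher, the anterior paralogs 1.92-fold and 3.07-fold, and the posterior paralogs 1.76-fold and 1.54-fold. With 1 library per time point no test was possible, and all these folds share the WT library.

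**Figure D2:**
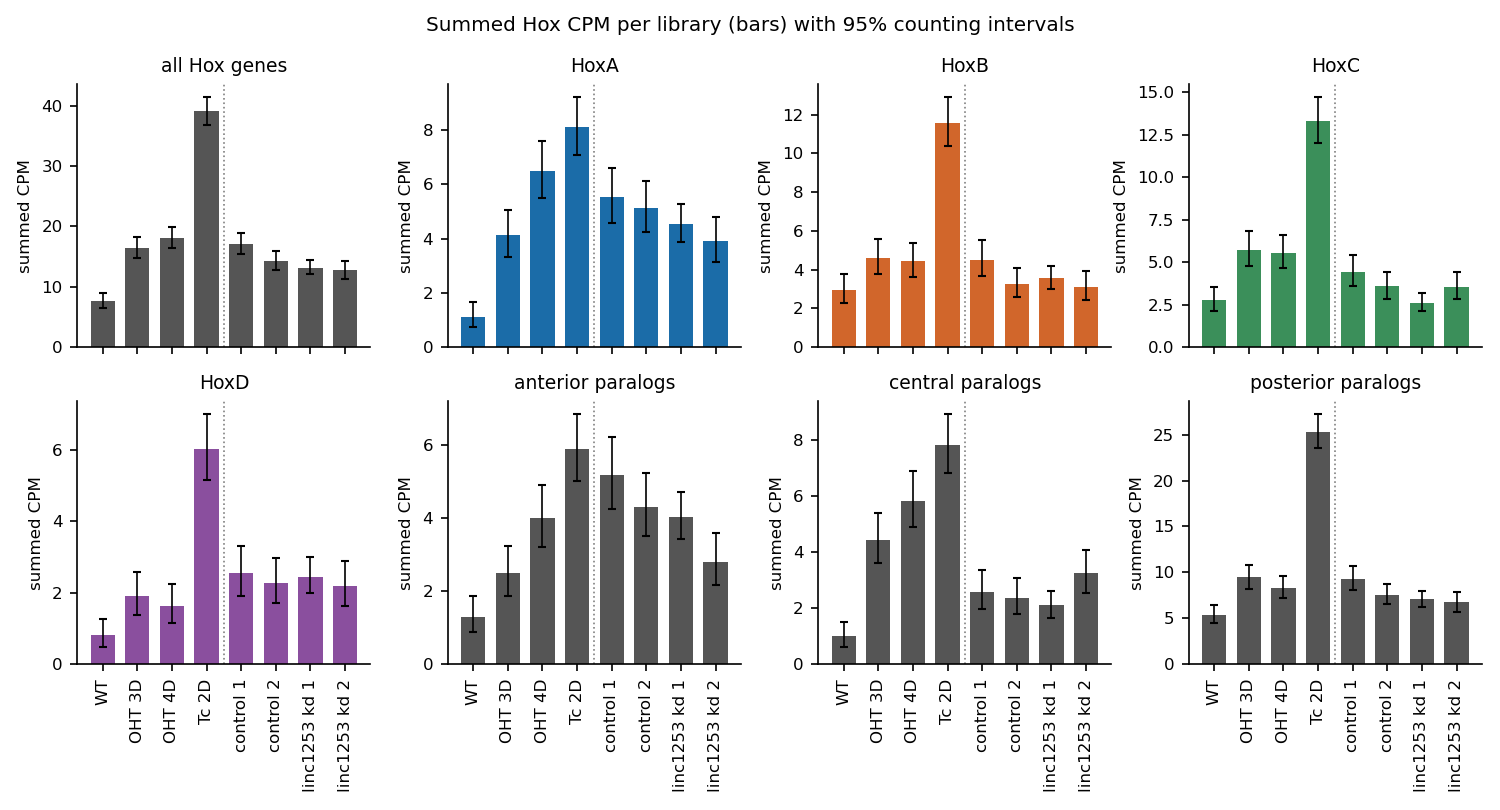
Summed CPM of Hox genes in each library, for all 40 IDs, for each cluster and for each paralog class, with 95% counting intervals as error bars. Among all IDs WT is lowest at 7.64 CPM and Tc 2D highest at 39.05, and each Pontin-depleted library lies above WT.

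Calls were made past a log2-fold-change of 0.58 in size, with 1 added to each CPM. At OHT 3D, 4 of the 10 members above 1 CPM were upregulated, where 6.01% of 13449 genes were upregulated in all, and 0 were downregulated (5.88% of all genes). At OHT 4D, 2 of 10 were upregulated, with 6.48% of all genes, and 0 downregulated, with 8.89%. These counts turn on the settings. At OHT 3D the count was 0 of 10 with 3 added to each CPM (3.31% of all genes) or past a log2-fold-change of 1 (1.9%), and 7 of 14 with scaling by library total (7.39%). At OHT 4D it was 1 of 10 with 3 added (3.69%) and 5 of 10 with 0.5 added (8.07%). The median log2-fold-change of the 10 was 0.42 and 0.31, beside -0.02 and 0.00 over all genes.

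Hoxa7, a central gene that patterns the thoracic vertebrae, held no read in WT and 20 in each Pontin-depleted library (0.905 and 0.876 CPM). Set against the limit of 3 reads that a count of 0 allows in WT, it was at least 6.75-fold higher at OHT 3D and at least 6.53-fold higher at OHT 4D. Folds given as at least, here and below, take the reads of the higher library as exact. They are not the lower ends of counting intervals, which would lie lower. In the 4 shRNA libraries of ZHBTc4 cells Hoxa7 stood between 0.301 and 0.702 CPM, below both Pontin-depleted libraries, while Tc 2D lay above them with 1.52 CPM.

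Hoxc13, the most posterior gene of HoxC and needed for hair and nails, had CPM values of 1.92, 3.39 and 1.93 in the WT, OHT 3D and OHT 4D libraries. It passed the threshold at OHT 3D (log2-fold-change 0.59, 1.77-fold, counting interval 1.20 to 2.63) and equalled WT at OHT 4D (1.00-fold, 0.643 to 1.56). Hoxd13, which patterns the digits, had 0.402, 1.49 and 0.701 CPM in the same order. Its ratio to WT was 3.71-fold at OHT 3D (1.74 to 8.82) and 1.74-fold at OHT 4D (0.725 to 4.47). The 2 time points differed for both, since OHT 4D stood at 0.568 of OHT 3D for Hoxc13 (0.382 to 0.835) and at 0.469 for Hoxd13 (0.241 to 0.877), and time and library cannot be told apart. Hoxb9, a gene of the thoracic body wall, missed the threshold with log2-fold-changes of 0.54 and 0.49, although its reads were 1.86-fold (1.12 to 3.16) and 1.76-fold (1.06 to 3.00) those of WT. Hoxb13, a gene of the tail end of the axis, had 1.7 CPM in WT and 1.36 in each Pontin-depleted library, and was the only member of the 10 with a lower value than WT at both time points.

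**Figure D3:**
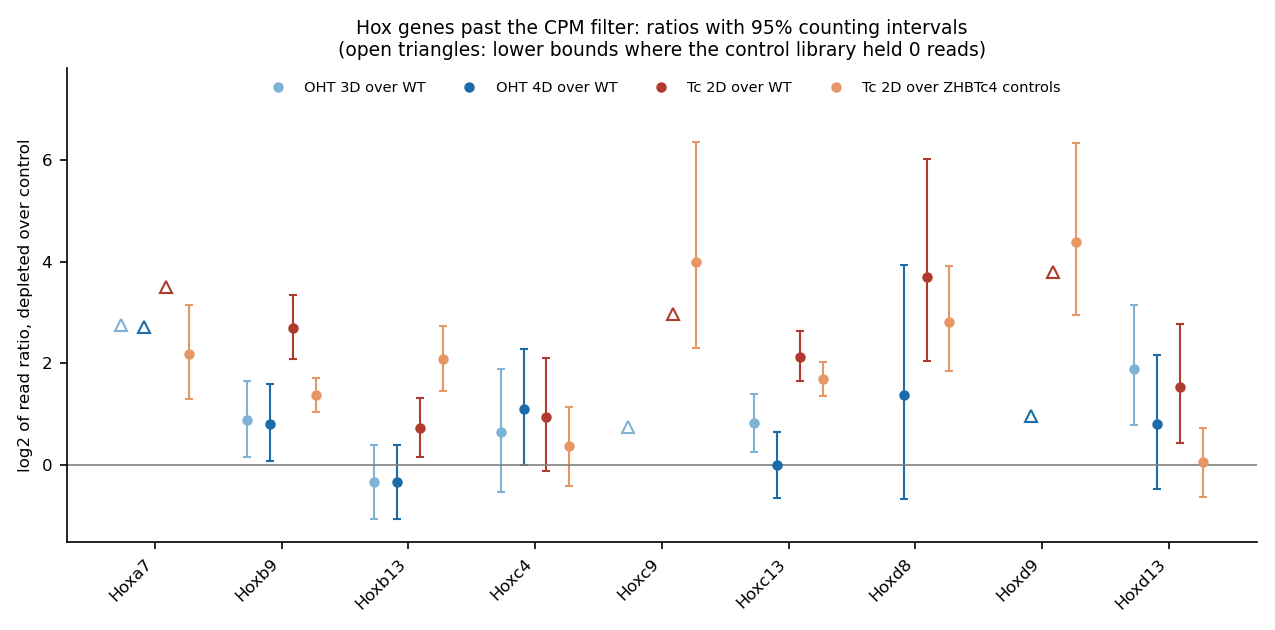
Log2 of the read ratio to the control for Hox genes above 1 CPM in WT, OHT 3D, OHT 4D or Tc 2D, with 95% counting intervals as bars. Open triangles set the reads against a limit of 3 where WT held 0, with the reads of the depleted library taken as exact. Ratios with both libraries at 3 reads or fewer are left out. Hoxa7 has triangles at 6.75-fold, 6.53-fold and 11.3-fold, and Hoxd13 lies near 0 for Tc 2D over the ZHBTc4 controls.

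The 30 IDs at or under 1 CPM in these 4 libraries held 20, 87 and 142 reads together in the WT, OHT 3D and OHT 4D libraries, which is 4.40-fold (2.68 to 7.56) and 6.96-fold (4.34 to 11.7) after scaling. Their summed CPM was 0.894, 3.94 and 6.22 in that order. The ZHBTc4 controls, which had no depletion, held 78 and 80 reads on them (3.60 and 3.44 CPM), close to OHT 3D. Of the 22 IDs with 0 reads in WT, 16 had at least 1 read at OHT 3D, beside 15.0% of the 6258 genes with 0 reads in WT, and 17 at OHT 4D, beside 15.5%. At least 4 reads were found for 5 of them at OHT 3D (2.08% of all such genes) and for 8 at OHT 4D (2.43%). IDs chosen for 0 reads in WT could only be equal or higher in another library, here and at Tc 2D. Among low members with reads in 1 of the 2 libraries compared, 22 of 24 were higher and 2 lower at OHT 3D, where 64.9% of all low genes were higher and 35.1% lower. For OHT 4D, 21 of 25 were higher and 4 lower, beside 53.6% and 46.4% of all low genes.

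Hoxc6, a central gene of the thoracic region, went from 2 reads in WT to 17 and then 21 reads after OHT, a ratio of 8.60 (2.04 to 76.8) and 10.3 (2.52 to 90.5), while the 4 shRNA libraries held 1 to 5 reads. Hoxb4, which promotes the growth of blood stem cells, went from 0 to 10 reads at both time points and was at least 3.37-fold higher at OHT 3D. Hoxc8 had 2, 5 and 19 reads in the order WT, OHT 3D, OHT 4D, and its ratio at OHT 4D was 9.31 (2.25 to 82.4). Hoxa10, a regulator of uterine development, had 1, 6 and 13 reads, a ratio of 12.7 at OHT 4D (1.91 to 541.4), and Hoxa5, needed for lung development, had 0, 5 and 11. In the ZHBTc4 controls Hoxb4 had 3 and 3 reads, Hoxc8 had 1 and 0, Hoxa10 had 1 and 5 and Hoxa5 had 7 and 6. Hoxa5 was thus at 0.323 and 0.258 CPM there, above its 0.226 at OHT 3D. After linc1253 knockdown Hoxa10 had 13 and 6 reads, Hoxa5 had 7 and 4, Hoxb4 had 7 and 5 and Hoxc8 had 1 and 1. These genes were named for their higher reads, and other central genes did not share them at OHT 4D, since Hoxb5 and Hoxb8, the latter partly shared with Hoxb7, had 0, 1 and 0 reads and Hoxa6 had 1, 2 and 1. Hoxd1, an anterior gene, had 5 reads in WT and 2 at each time point.

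Markers of other cells moved with these values. Of 20 fibroblast markers, 18 were above 1 CPM, and 17 of the 18 were upregulated at OHT 3D and 17 at OHT 4D, with a median log2-fold-change of 2.22 and 2.17. Their summed CPM was 836, 1042 and 997 in the WT, OHT 3D and OHT 4D libraries, with Lum at 0 reads in the first 2. Fn1 alone held 794, 642 and 556 CPM of these sums, and the other 19 markers together had 42.5, 400.3 and 440 CPM. Primitive endoderm markers were upregulated for 4 and 7 of 8, trophectoderm markers for 5 and 6 of 10 (2 and 1 were downregulated), and mesoderm markers for 2 and 3 of 4. Of 4 neural markers, 1 was upregulated and 0 downregulated at each time point, with medians of 0.13 and 0.19. Of 10 ES cell markers, 0 were upregulated at either time point, and 0 and 1 were downregulated. Genes of these lists, and of the lists below, could also pass 1 CPM through a depleted library alone. The mesoderm gene Wnt3 did so, with 0.179 CPM in WT and 2.89 at OHT 4D. Such genes had to be higher there, so the counts and medians of the lists are descriptions rather than support. The part of any of these cells in the Hox values was not tested, and embryonic fibroblasts are known to express Hox genes.

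Oct4 depletion gave the highest Hox level in the study. Against WT, the summed Hox reads at Tc 2D were 5.11-fold higher (95% counting interval 4.34 to 6.04), with 7.25-fold for HoxA (4.79 to 11.4), 3.93-fold for HoxB (3.01 to 5.2), 4.81-fold for HoxC (3.67 to 6.39) and 7.49-fold for HoxD (4.6 to 12.9). WT and Tc 2D are different cell lines, and WT itself stood at 0.491 of the ZHBTc4 controls (0.413 to 0.581). Against the ZHBTc4 controls, the Hox sum at Tc 2D was 2.51-fold higher (2.28 to 2.76). These controls share the line but carry a lentivirus and were sequenced on another instrument model, and the parts of these differences cannot be told apart. HoxA was then lowest at 1.52-fold (1.27 to 1.83), beside 2.99-fold for HoxB, 3.34-fold for HoxC and 2.51-fold for HoxD. These folds over the ZHBTc4 controls set separately normalized CPM against each other. Scaling by library total would raise each of them, that of WT included, and their intervals do not cover this.

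By the same rule, 8 of the 10 members were upregulated at Tc 2D against WT, with 23.9% of all genes upregulated, and 0 were downregulated, with 25.8%. The median log2-fold-change was 1.30 beside -0.06 over all genes. Scaling by library total moved the median of all genes by 0.30, after which 14 members passed the filter and all 14 were upregulated, with 35.7% of genes upregulated and 16.0% downregulated. Against the ZHBTc4 controls, 7 of 10 were upregulated (17.6% of all genes) and 0 downregulated (30.3%), with a median of 1.03 beside -0.17. With all 8 libraries on 1 median-ratio scale, 8 of 13 were upregulated and 0 downregulated, with 23.8% of all genes upregulated and 23.8% downregulated. The genes called against both controls were Hoxa7, Hoxb9, Hoxc9, Hoxc13, Hoxd8 and Hoxd9. Of these, Hoxa7, Hoxc9, Hoxd8 and Hoxd9 passed 1 CPM at Tc 2D alone. They had to be higher there against either control, so these counts and medians are a description rather than support. Control replicate 2 against control replicate 1 gave 0 calls among the 5 members above 1 CPM there, with 1.93% of all genes up and 1.16% down.

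The posterior genes held the highest levels at Tc 2D. Hoxc13 had a CPM of 8.42 at Tc 2D, 1.92 in WT, 3.00 and 2.24 in the controls and 1.39 and 1.80 after linc1253 knockdown, so that Tc 2D lay above the other 7 libraries, OHT 3D with 3.39 included. Its ratio was 4.38-fold against WT (3.16 to 6.21) and 3.23-fold against the ZHBTc4 controls (2.58 to 4.07). Hoxb9 had a CPM of 7.19 at Tc 2D, 1.12 in WT, 3.04 and 2.49 in the controls and 2.65 and 2.41 after knockdown. Its ratio was 6.43-fold against WT (4.24 to 10.2) and 2.60-fold against the controls (2.07 to 3.28). Hoxb13 had a CPM of 2.82 at Tc 2D and 1.7 in WT, but 0.969 and 0.387 in the controls. It was therefore not called against WT, with a log2-fold-change of 0.50, and was 4.22-fold higher than the controls (2.74 to 6.66). Hoxb13 was 7.28-fold higher without control replicate 1 (3.65 to 16.5) and 2.91-fold higher without control replicate 2 (1.78 to 4.96).

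Some genes of HoxD and HoxC had few reads outside Tc 2D. Hoxd9, a trunk and limb gene, held 53 reads in that library (1.87 CPM), 0 in WT, 3 and 6 after OHT and 1 to 3 in each shRNA library. It was at least 13.9-fold higher than WT and 21.0-fold higher than the ZHBTc4 controls together (7.73 to 79.8), which held 3 and 1 reads. Hoxd9 was 13.5-fold higher without control replicate 2 (4.37 to 67.5) and 43.4-fold higher without control replicate 1 (7.46 to 1747). Its neighbour Hoxd8 had 49 reads (1.73 CPM) against 3 in WT and 5 and 6 in the controls, which is 12.9-fold (4.16 to 64.6) and 7.05-fold (3.62 to 15.0). Hoxc9, a thoracic gene, had 30 reads (1.06 CPM) against 0 in WT and 3 and 0 in the controls, at least 7.88-fold higher than WT. Against the 3 reads of both controls together Hoxc9 was 15.8-fold higher (4.92 to 81.1), and it was 7.64-fold higher without control replicate 2 (2.38 to 39.1) and at least 8.19-fold higher without control replicate 1. The remaining HoxD genes had 1 to 33 reads at Tc 2D, with 1 for Hoxd4, which shares most of its exon bases with Hoxd3, 3 for Hoxd12 and 7 for Hoxd10. Of the 22 IDs with 0 reads in WT, 18 had at least 1 read at Tc 2D (21.3% of all such genes) and 14 had at least 4 (6.17%), and among low members 25 of 26 were higher than in WT (63.4%) and 1 lower (36.6%).

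The result for Hoxd13 depended on the control. Hoxd13 had 1.16 CPM at Tc 2D, 2.89-fold that of WT (1.35 to 6.87), but 1.11 and 1.12 in the controls, 1.05-fold (0.652 to 1.65). WT set directly against the ZHBTc4 controls gave 3 of 10 members downregulated (19.8% of all genes), Hoxb9 and Hoxd13 among them, and 1 upregulated, Hoxb13 (9.36%). Hoxa7 had 1.52 CPM at Tc 2D and was at least 11.3-fold higher than WT and 4.54-fold higher than the controls (2.47 to 8.80). Hoxc4, a gene of the neck region, had 0.492, 0.769, 1.05 and 0.952 CPM in the order WT, OHT 3D, OHT 4D and Tc 2D, and 0.696 to 1.27 CPM in the shRNA libraries, and was called in none of these comparisons.

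Markers of other cells were again followed. Over all genes, 23.9% were upregulated and 25.8% downregulated at Tc 2D against WT, and 17.6% and 30.3% against the ZHBTc4 controls. At Tc 2D against WT, 9 of 10 ES cell markers were downregulated, 8 of 10 trophectoderm markers were upregulated and 2 downregulated, 5 of 8 primitive endoderm markers were upregulated, and 2 of 4 mesoderm markers were upregulated. Fibroblast markers were upregulated for 4 and downregulated for 7 of 18, with a sum of 583 CPM, of which Fn1 held 515. The other 19 had 67.7 CPM at Tc 2D, 42.5 in WT and 105 and 96.7 in the ZHBTc4 controls, and at Tc 2D Acta2, Postn, Dcn, Lum and S100a4 were at 0 reads. Of 4 neural markers, 4 were downregulated. Against the ZHBTc4 controls, 10 of 10 ES cell markers and 2 of 4 neural markers were downregulated, 8 trophectoderm markers were upregulated and 1 downregulated, 5 primitive endoderm and 0 mesoderm markers were upregulated, and 2 fibroblast markers were upregulated and 7 downregulated. The trophectoderm sum was 549 CPM at Tc 2D, 267 in WT and 130 and 128 in the ZHBTc4 controls. Tfap2c, downregulated against WT, held 192 CPM of the WT sum, and the other 10 markers had 464 CPM at Tc 2D, 75.4 in WT and 77.8 and 78.8 in the controls. The part of any of these cells in the Hox values at Tc 2D was not tested.

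Genes that act on or with the Hox clusters were followed from lists. The TALE homeodomain proteins (Pbx, Meis and Pknox), which bind DNA together with Hox proteins, gave 3 upregulated and 1 downregulated of 9 at each OHT time point, and 4 and 1 at Tc 2D against WT. Against the ZHBTc4 controls it was 2 and 2 of 9, and the median log2-fold-change of this list went from 0.09 to -0.25. Meis1 had 0.849, 2.90, 2.32 and 4.12 CPM in the order WT, OHT 3D, OHT 4D and Tc 2D, and Pbx3 was downregulated at both OHT time points (13.1 to 6.11 and 8.19 CPM). Of the 16 Cdx and retinoic acid genes above 1 CPM, 4 were upregulated at OHT 3D and 7 at OHT 4D with 0 downregulated, and 6 were upregulated and 5 downregulated at Tc 2D against WT. Against the ZHBTc4 controls the balance turned, with 3 of 17 upregulated and 6 downregulated and a median of 0.00 in place of 0.37. Cdx1, a direct activator of Hox genes, had 1.61, 3.12, 11 and 2.18 CPM in that order. Its paralog Cdx2, also a trophectoderm factor, had 0.0894, 0.679, 1.01 and 9.23 in the same order. Rarg, a retinoic acid receptor, was upregulated at OHT 3D (88.7 to 171 CPM), was also above WT at OHT 4D (147 CPM) and was downregulated at Tc 2D (25.0 CPM).

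Trithorax and H3K27 demethylase genes, which favour active Hox chromatin, had 0 calls of 13 at OHT 3D, 3 downregulated at OHT 4D, and 4 upregulated and 3 downregulated at Tc 2D against WT (3 and 5 against the ZHBTc4 controls). Kmt2a, the H3K4 methyltransferase that maintains Hox expression, had 62.7, 68.3, 31.6 and 202 CPM in the order WT, OHT 3D, OHT 4D and Tc 2D. Polycomb genes, whose products repress Hox chromatin, had 0 calls of 25 at OHT 3D, 3 upregulated and 1 downregulated at OHT 4D, and 9 upregulated and 9 downregulated at Tc 2D against WT (10 and 9 against the ZHBTc4 controls). Calls in both directions were common at Tc 2D against WT, with 23.9% of all genes upregulated and 25.8% downregulated. At Tc 2D against WT, Cbx8 (log2-fold-change 2.32) and Bmi1 (2.00) were among the upregulated genes, and Phc1 was downregulated (-2.58). The core subunits differed less, with Ezh2 at -0.60, Eed at -0.87 and Suz12 at -0.58, although Eed stood at -1.49 against the ZHBTc4 controls.

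Genes around the clusters and homeobox genes elsewhere were set beside the Hox genes. Of 53 genes within 500 kb of a cluster, 35 were above 1 CPM, with 2 upregulated and 2 downregulated at OHT 3D, 2 and 3 at OHT 4D, and 6 and 11 at Tc 2D, and median log2-fold-changes of -0.00, 0.00 and -0.28. Of homeobox genes of the same class outside the clusters, 9 of 19 were upregulated and 0 downregulated at each OHT time point, and 8 and 5 at Tc 2D. Medians were 0.31, 0.46 and 0.31 for these, beside 0.42, 0.31 and 1.30 for the Hox genes. Both sets include genes that passed 1 CPM through a depleted library alone, so these counts and medians are descriptions rather than support. These Tc 2D values are against WT, where 23.9% of all genes were upregulated and 25.8% downregulated. Against the ZHBTc4 controls, 4 of 38 neighbours were upregulated and 17 downregulated with a median of -0.52, and 7 of 20 homeobox genes elsewhere were upregulated and 5 downregulated with a median of 0.13, beside 1.03 for the Hox genes. Msx2, of this class, was upregulated in each, from 0.626 CPM in WT to 2.31, 4.47 and 8.53.

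Knockdown of linc1253 changed no Hox gene past the adjusted threshold without a replicate block. In limma fitted on 13407 genes with 2 libraries against 2 and Benjamini-Hochberg adjustment, 0 of the 5 members above 1 CPM and 0 genes in all (0%) had an adjusted p under 0.05, and the smallest adjusted p of any gene was 0.265. At an unadjusted p under 0.05, 1 member was found, Hoxc13, beside 7.45% of all genes. The quasi-likelihood test of edgeR also gave 0 genes after adjustment and 1021 at an unadjusted p under 0.05 (7.62%), whereas DESeq2 gave 50 genes after adjustment (0.373%) and 585 before (4.36%), but no adjusted p for any of the 5 members.

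Hoxc13 had a CPM of 3.00 and 2.24 in the controls and 1.39 and 1.80 after knockdown, so that the groups did not overlap. Groups that did not overlap were found for 2 of the 5 members in the direction of lower values after knockdown (19.2% of all genes) and for 1, Hoxd13, in that of higher values (18.8%). The Hoxc13 log2-fold-change was -0.48 (SE 0.18, limma adjusted p = 0.644). Closer to 0 were the limma log2-fold-changes of -0.09 for Hoxb9 (adjusted p = 0.923), 0.07 for Hoxd13 (0.945) and 0.18 for Hoxc4 (0.869). Without a block, these differences could not be told from the spread between libraries. With the replicate number as a block, Hoxc13 had an adjusted p of 0.0482 in limma, where 14.6% of all genes passed, and the labels do not say that the numbers pair the libraries.

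Pontin at Hox promoters was measured by ChIP-seq in untreated ZHBTc4 cells. Reads were counted from 2500 bases upstream to 500 bases downstream of the outermost annotated start of each gene. They were scaled to the 40729076 reads of the Pontin library and the 17185883 of the GFP library. Of these reads, 20682228 of the Pontin library and 8770398 of the GFP library were first mates of a pair. Both mates were counted as separate reads, so the ChIP-seq intervals are narrower than a count of fragments would give. Each of the 40 Hox windows held 39 to 103 Pontin reads and 11 to 42 GFP reads, and 5 windows overlapped that of another member. Pooled over the windows, Pontin over GFP gave a log2 ratio of 0.38 (95% counting interval 0.27 to 0.49), beside 0.25 over all protein-coding promoters. The median of the single windows was 0.29, beside 0.34 over all 21178 promoters with reads in both libraries, so that the pooled value lay above all promoters and the median below. In windows of 1000 bases on either side of the start site the median turned, with 0.67 for the Hox windows and 0.53 for all promoters. A log2 ratio above 1 was found for 7 of 40 Hox windows (17.5%) and for 14.8% of all promoters, but in the windows of 1000 bases on either side it was found for 7 Hox windows and 26.4% of all promoters. Against other promoters of like GC content, within 2 percentage points, 17 of 40 Hox windows lay above the median, and the median difference was -0.10. With 1 read per position and strand the pooled Hox log2 ratio was 0.22, and the Hox median 0.13 beside 0.29 over all promoters. Scaling by the median ratio over promoters gave a pooled Hox value of 0.037.

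High ratios were those of Hoxa4, with 82 Pontin and 12 GFP reads (log2 ratio 1.53, counting interval 0.65 to 2.54), Hoxd1 (1.37), Hoxd12 (1.35) and Hoxa2 (1.34). The lowest was Hoxd11, with 39 Pontin and 31 GFP reads (-0.91, interval -1.63 to -0.18), and the Hoxa3 windows, which the 2 IDs share almost wholly, stood at -0.75 with 59 and 42 reads. Hoxa10 (-0.33), Hoxd4 (-0.32) and Hoxc4 (-0.19) came next. The outermost Hoxa3 start used here lies upstream of the Hoxa6 start, and its window overlaps that of Hoxa6. Any other start of Hoxa3 was not counted. The interval lay above a ratio of 1 for 11 windows and below it for 3, which include both Hoxa3 IDs with the same reads. It spanned 1 for the rest. The share of all promoters with such intervals was not counted, so these counts set the Hox windows apart from no others. A log2 ratio above 0 was found for 31 of 40 Hox windows and for 14852 of 21178 promoters. Hoxa7, with 0.04, and Hoxc13, with 0.21, lay below the Hox median.

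**Figure D4:**
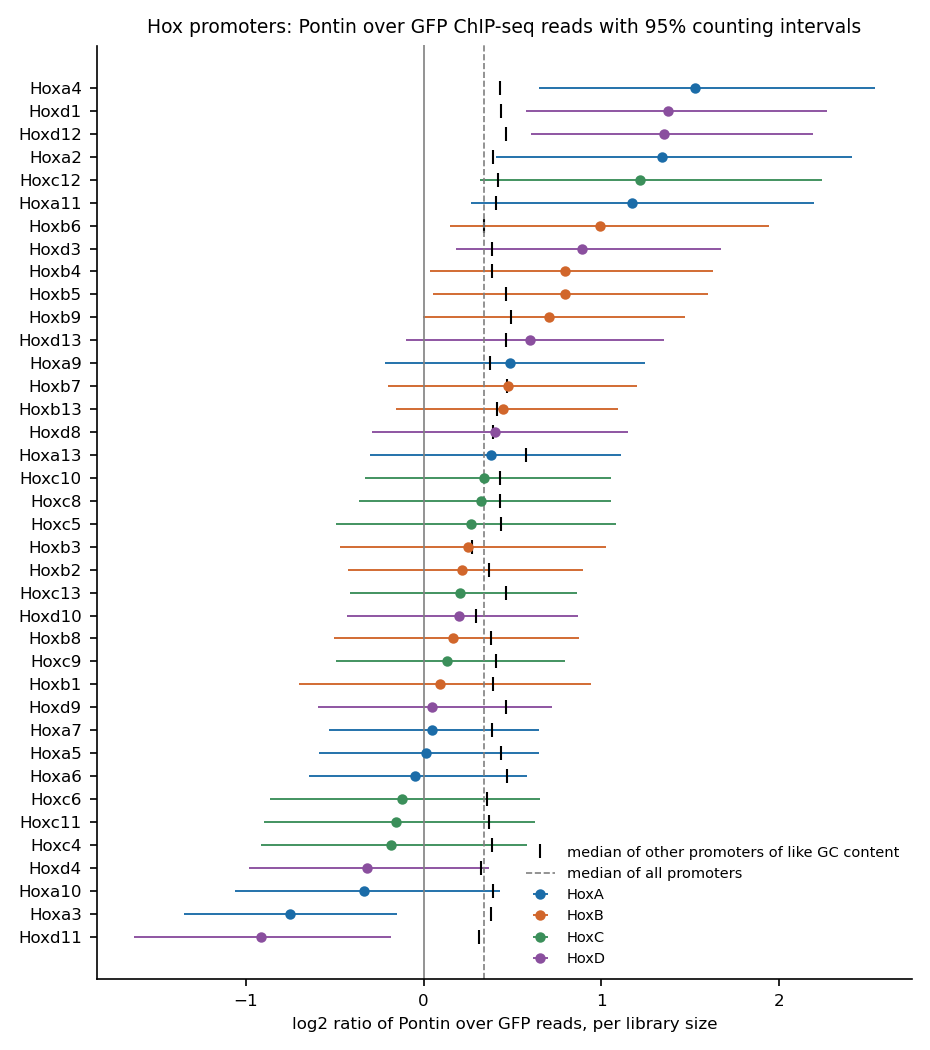
Log2 ratio of Pontin over GFP ChIP-seq reads at Hox promoter windows (points) with 95% counting intervals (bars), ordered by ratio, and the median of all promoters as a dashed line at 0.34. Hoxa4 is highest of those plotted at 1.53 and Hoxd11 is lowest at -0.91, and most intervals span 0.

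By cluster, the pooled promoter log2 ratio was 0.39 for HoxA, 0.48 for HoxB, 0.21 for HoxC and 0.41 for HoxD, with intervals that overlapped. Genes within 500 kb of the clusters had 0.41 and homeobox genes elsewhere 0.38, about the same as the Hox value. Over whole clusters, HoxA had a log2 ratio of 0.50 (0.38 to 0.61) against -0.06 (-0.14 to 0.02) in the 100 kb on either side. HoxD had 0.30 against 0.04, HoxC 0.27 against 0.18, and HoxB 0.10 against 0.19. GC content was higher inside each cluster than beside it, 50.01% against 44.3% for HoxA, 48.9% against 46.3% for HoxB, 49.1% against 45.1% for HoxC and 49.4% against 40.5% for HoxD. The part of GC content was not tested over the clusters. Within HoxB, the stretch of 74.0 kb between Hoxb13 and Hoxb9, which holds no other Hox gene and was picked after the profile was seen, had -0.17 (-0.30 to -0.04), and the rest of the cluster 0.32 (0.20 to 0.44). In bins of 5 kb the highest value lay outside the HoxC cluster, at 2.09, in a bin with 141 Pontin and only 14 GFP reads.

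**Figure D5:**
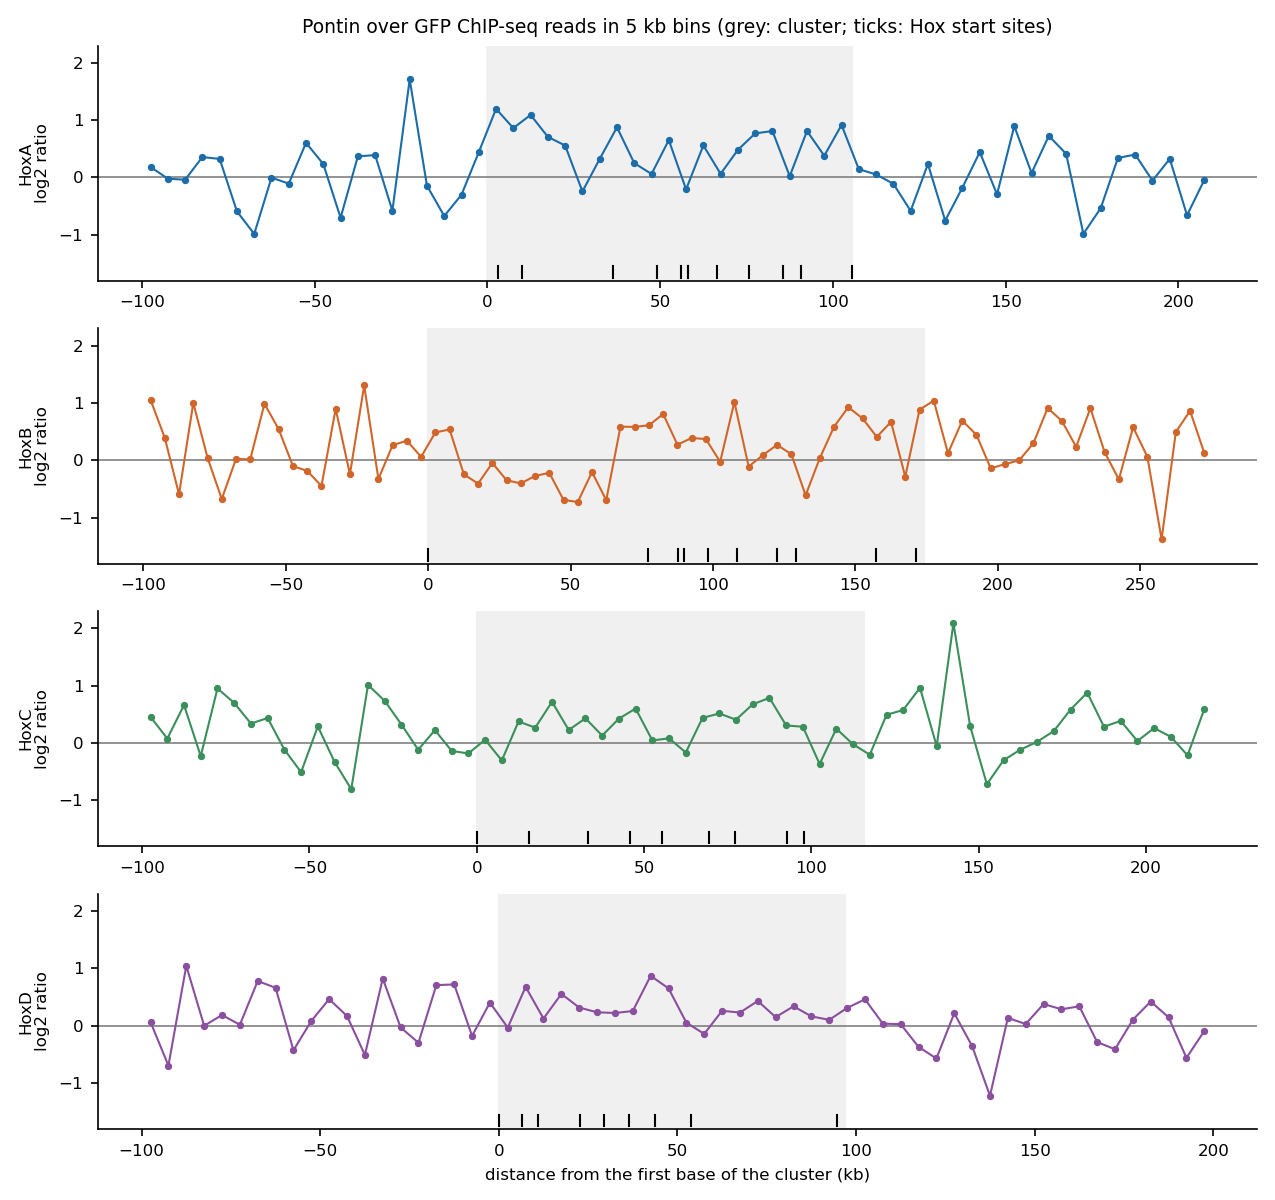
Log2 ratio of Pontin over GFP reads in 5 kb bins across each Hox cluster (grey) and 100 kb on either side, against the distance in kb from the first base of the cluster, with ticks at Hox start sites. Bins inside HoxA have a median of 0.56 and those beside it a median near 0, and HoxB dips between Hoxb13 and Hoxb9.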

How the data were processed

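mRNA of 8 libraries and ChIP-seq of 2 libraries were analysed. For mRNA, the authors trimmed reads with cutadapt, used TopHat and the NCBIM37 build for alignment and HTSeq for counts per Ensembl gene, and deposited CPM after TMM normalization in edgeR, as 2 tables of 4 libraries normalized separately. TopHat could place a read at several sites, and the counting strand is not given in the sources used here. Each CPM was a whole number of reads within 0.01 read for 100% of values, so reads were recovered, 17187595 to 37951742 per library. For ChIP-seq, the authors aligned reads with Bowtie2 and deposited each read with its position and mapping quality score. No column of per-sample values was left unused.

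Symbols were matched for 22337 of 22713 IDs through GENCODE vM1. Hox members, gene lists and tests were chosen with earlier results of these data known. All 39 members entered the counts and sums, and those called or above 1 CPM were named with values, except that some genes are not reported here. For OHT 3D, OHT 4D and Tc 2D against WT, with 1 library each, genes above 1 CPM in at least 1 of 4 libraries were compared as log2 of CPM plus 1, which understates the change of low genes, and called past 0.58 without a test. Ratios of reads have exact (Clopper-Pearson) 95% intervals, and a count of 0 was set at 3 reads per library. Folds given as at least rest on that limit and take the reads of the other library as exact, so they are not 95% bounds. The intervals cover the counting of reads alone, as PCR copies were not marked. For linc1253, the same log2 values were tested in limma 3.58.1 with trend (two-sided, Benjamini-Hochberg over all genes), with edgeR 4.0.16 and DESeq2 1.42.0 on recovered reads as alternatives. Replicate pairs differed by more than sampling noise. The alternatives were pseudocounts of 0.5 and 3, other filters, other scalings, an absolute log2-fold-change above 1, other fits, leaving out each shRNA library and, for ChIP-seq, other windows, scalings and read filters. Calculations were tested on simulated data and used R 4.3.3, Python 3.11.15, numpy 2.4.6, pandas 2.3.3 and scipy 1.17.1. Figures used matplotlib 3.10.9.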

Additional observations from a re-analysis of the deposited data

How the results depend on the processing

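Of 89 counts and pooled ratios under alternatives, 62 stayed within a wide tolerance set for each kind of value and 27 moved. Of 220 log2-fold-changes of single Hox genes, 150 stayed within it, 68 moved and 2 passed the threshold with the replicate block alone. A value within the tolerance could still differ in size, as Hoxd13 at OHT 3D went from 0.83 to 0.40 with a pseudocount of 3. Hoxa7 at OHT 3D, 0.93 in the main setting, was 0.38 with a pseudocount of 3 and 1.49 with one of 0.5. The number of Hox genes upregulated at OHT 3D, 4 in the report, was 0 of 10 with a pseudocount of 3 (3.31% of all genes) or an absolute log2-fold-change above 1 (1.9%), 1 of 2 with a filter at 5 CPM (4.98%), 7 of 14 with scaling by library total (7.39%) and 7 of 13 by median ratio (7.11%). At OHT 4D the number, 2 in the report, was 5 of 10 with a pseudocount of 0.5 (8.07%), 5 of 40 with no filter (4.06%), 5 of 13 with at least 10 reads (6.66%), 5 of 14 with scaling by library total (7.93%) and 5 of 13 by median ratio (7.34%). It was 1 of 10 with a pseudocount of 3 (3.69%) or a log2-fold-change above 1 (2.38%), and 0 of 2 with a filter at 5 CPM (5.29%). At Tc 2D the number, 8 in the report, was 2 of 2 with a filter at 5 CPM (21.4%) and 14 of 14 with scaling by library total (35.7%). With the ZHBTc4 libraries as the control it was 7 of 10, also without either control library (18.4% and 17.9% of all genes, added after seeing the data). The causes were not tested, apart from the filters, which leave fewer or more genes to call.

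After linc1253 knockdown, 1 of 5 Hox genes had an unadjusted p under 0.05 (7.45% of all genes). This was 2 of 5 for limma without trend (8.14%), 2 of 5 with a pseudocount of 3 (7.49%), 2 of 34 for edgeR on all genes with a read (6.92%, added after seeing the data), 5 of 40 IDs without a filter (8.17%) and 0 of 5 for DESeq2 (4.36%). Leaving out each shRNA library gave 0 to 1, and 0 after adjustment, and the lone library of a group was then assumed to vary like the others. Without shRNA_control replicate 1 the count was 0. With the replicate number as a block, 2 Hox genes had an adjusted p under 0.05, Hoxc13 among them (limma, adjusted p = 0.0482), with 1960 genes in all (14.6%), and 2 had an unadjusted p under 0.05 (29.5% of all genes). The labels share only the number, and the deviations of same-numbered libraries correlated at 0.673 across genes. This is a single value, since with 2 libraries per group the second pair mirrors the first. The pairing is therefore a hint from the data and not from the design. Hoxb9 moved to 0.01 without shRNA_control replicate 1 and Hoxc4 to -0.03 without shRNA_linc1253 replicate 2. A filter at 5 CPM left no Hox gene to test.

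The pooled Hox log2 ratio of Pontin over GFP, 0.38 in the report, was 0.22 with 1 read per position and strand, 0.49 within 1000 bases of the start site, and 0.037 after scaling by the median ratio over promoters, which also left 4 of 40 windows above 1 (6.27% of all promoters). Requiring 50 GFP reads left no Hox window.

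Depth limits most members. In WT 1 read is 0.0447 CPM, and the limit that 0 reads allows is 0.134 CPM. Without replicates for Pontin and Oct4 depletion, the spread between cultures is not known for any Hox value there.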
